A study of Gossypium hirsutum with 18 samples.

Results

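The course of gene expression in ovules of the fiber-bearing cotton line Xu142 was followed through 700 genes, compared at 1 day post-anthesis (DPA) with -1 DPA. These were the genes with the same identifier in the deposited tables of both days, out of 11153 genes listed in any of the 3 daily tables. They made up 80.3% of the 872 genes listed at -1 DPA and 6.49% of the 10793 listed at 1 DPA. Among them were 458 annotated genes (219 of the A subgenome, 226 of the D subgenome and 13 on other contigs) and 242 unannotated transcripts. A protein name from the closest Swiss-Prot match was present for 333.

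The series holds RNA sequencing of ovules of upland cotton (Gossypium hirsutum), whose treatment label reads "Unhandled", in 18 libraries that form 6 groups of 3. The groups used here are Xu142 at 1 DPA, Xu142 at 0 DPA, Xu142 at -1 DPA, and the same days of Xu142fl. As background, Xu142fl is a fuzzless and lintless mutant of Xu142, and the title places the series in the study of H3K27me3 and fiber initiation. The labels name neither plants nor pools, so that p-values speak only of variation among these libraries, and this variation could be technical.

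Cotton fibers are single epidermal cells of the ovule that begin to bulge out around the day of flower opening and then elongate. Elongation is known to draw on very-long-chain fatty acids, on lipid-transfer proteins that carry lipids to the cell surface, and on enzymes that loosen and rebuild the wall. Ovules hold many other cells, and in such bulk RNA fewer cells of a type and less RNA per cell cannot be told apart.

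Values are the authors' normalised reads, which are reads per gene divided by 1 factor per library, set in each daily table on its own. A difference between days therefore includes an unknown scale between the tables, and it was described without a test. Differences are those of mean log2(normalised reads + 1), Xu142 at 1 DPA minus Xu142 at -1 DPA, with their SE over 3 libraries a day. A large shift was a difference of at least 2, or 4-fold, with no overlap between the 3 libraries of each day and a mean of at least 10 normalised reads on either day. The test that the tables do allow is whether the course of Xu142 differed from that of Xu142fl, since a scale shared by a table cancels there. It was made with edgeR's quasi-likelihood test of the interaction of genotype and day over all 700 genes. Each gene had been listed for a genotype difference on both days, so the shares called below are not those of unselected genes. Where the higher genotype switched between the days, an interaction follows from the listing, and its p-value adds nothing to it. Recovered reads over the 700 genes were between 310705 and 338050 per Xu142 library at 1 DPA and between 138359 and 152484 at -1 DPA. In Xu142fl they were between 123014 and 217199 at 1 DPA and between 120914 and 139653 at -1 DPA.

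A group of transcripts stood apart in the Xu142 libraries of -1 DPA. For 186 genes, 126 of them unannotated transcripts, Xu142 at -1 DPA held at most 5% of the Xu142fl level of that day. Their median share of the Xu142fl level was 2.72%, 2.79% and 2.46% in Xu142 replicates 1, 2 and 3 at -1 DPA, with an interquartile range over genes of 1.80% to 3.35%. At 1 DPA the median share was 0 in each of the 3 Xu142 libraries, and 122 of the 186 had no read there. The 145 of them that the 0 DPA table also lists stood at a median of 4.32% of the Xu142fl level on that day. Counts of genes lower at 1 DPA are given with and without this group, and its part in them was not tested.

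Of the 700 genes, 493 reached the mean of 10, and 207, of which 126 were unannotated transcripts, did not. Their median difference in Xu142 was -0.45, with an interquartile range of -0.98 to 0.29, and the median of the same genes in Xu142fl was -0.43. Large increases were found in 37 genes, 7.51% of the 493, and large decreases in 44, or 8.92%. Without the 186 low-share genes the increases stayed at 37 and the decreases came to 13. Scaling the libraries to a common median raised the median difference by 0.51 and gave 51 increases and 35 decreases. Factors taken from the shared genes, by TMM or by DESeq2, raised it by 0.37 and gave 47 and 35. All 37 increases and 35 of the 44 decreases were kept in each of these scalings. Libraries without overlap and a higher level at 1 DPA were found in 21.3% of the 493 genes, and with a lower level in 46.7%.

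**Figure D1:**
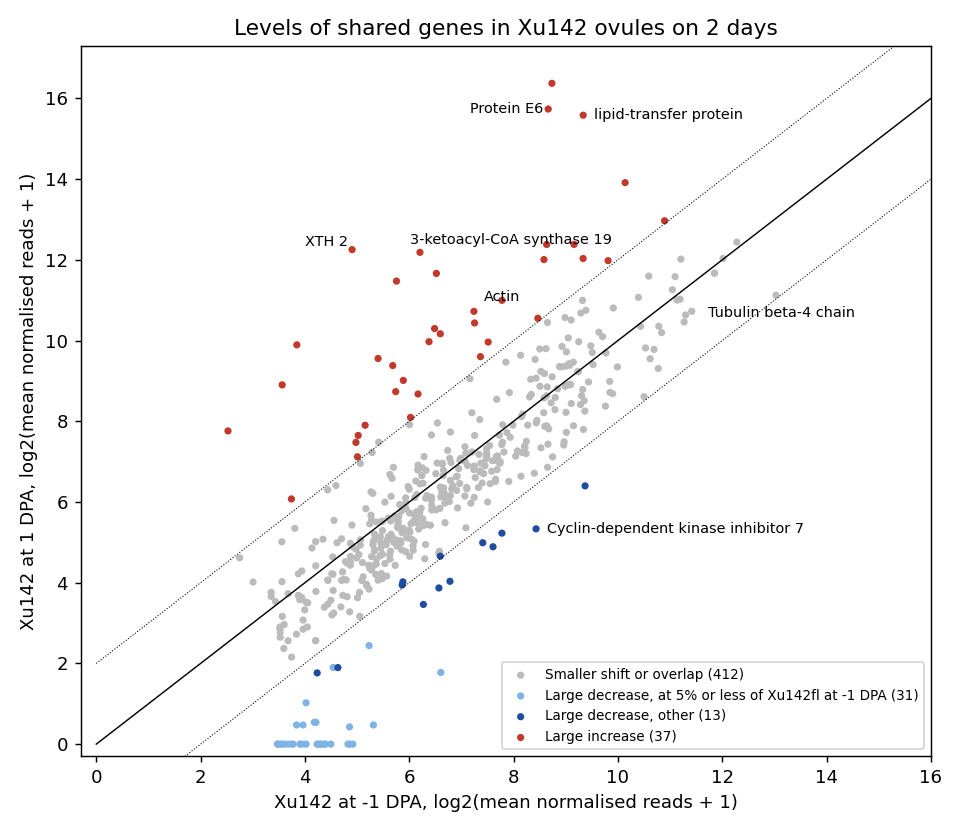
Level of the 493 genes, as log2(mean normalised reads + 1), in Xu142 at 1 DPA (vertical) against Xu142 at -1 DPA (horizontal), with 1 point per gene and lines at equal levels and at 4-fold. The 37 large increases lie above or at the upper line, 31 large decreases of low-share transcripts and 13 other large decreases lie below or at the lower line, and 412 genes showed a smaller shift.

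The 37 genes with a large increase were 4.21- to 199.9-fold higher at 1 DPA, with a median of 10.8-fold, and 23 of them differed by more than 3 on the log2 scale. They included 35 annotated genes, 19 of the A and 16 of the D subgenome, of which 26 had a protein name. All 37 gained in rank among the 700 genes, by 1.38 to 59.1 percentile points (median 24.4), a direction partly set by their choice. The 5 most abundant of the shared genes took 51.7%, 57.4% and 54.6% of the shared reads in the Xu142 libraries of 1 DPA, against 17.6%, 17.5% and 18.2% at -1 DPA. In the authors' deposited tables, 25 of the 37 were higher in Xu142 than in Xu142fl on both days, beside 268 of all 700 genes. A further 10 were higher in Xu142fl at -1 DPA and in Xu142 at 1 DPA, beside 14 of the 700. The other 2 were higher in Xu142fl on both days, beside 404 of the 700.

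Fiber and wall transcripts were among the most abundant at 1 DPA. Fiber protein E6 (Gh_A05G145000, chromosome A05, 15550989 to 15552086, on the authors' build as are all positions here), known from cotton as a protein of elongating fibers, had 36276, 73224 and 54261 normalised reads in Xu142 replicates 1 to 3 at 1 DPA, against 377, 446 and 390.0 at -1 DPA. Every 1 DPA library was far above every -1 DPA library, and replicate 1 was the lowest of the 1 DPA libraries. The difference was 7.02 ± 0.30, while Xu142fl held 157 ± 44.2 normalised reads at 1 DPA and 169.6 ± 42.2 at -1 DPA (SD, n = 3 each). The course of E6 was higher in Xu142 by 7.20 ± 0.41 on the log2 scale (edgeR interaction, adjusted p = 3.7e-11).

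Xyloglucan endotransglucosylase/hydrolase 2 (XTH2, Gh_D02G024500, chromosome D02, 2557857 to 2559630), of a family that cuts and rejoins xyloglucan in the wall, had 2479, 6617 and 5543 normalised reads in Xu142 at 1 DPA, against 26.1, 30.9 and 29.8 at -1 DPA. The days did not overlap, and the gene moved to the 98.4th percentile of the shared genes, against the 43.7th at -1 DPA. The difference was 7.24 ± 0.44, and the edgeR interaction was 6.13 ± 0.44 (adjusted p = 1.57e-09). XTH2 also stood higher in Xu142fl at 1 DPA, with 559 ± 50.7 normalised reads against 233 ± 75.3 at -1 DPA. XTH 22 (Gh_D02G111600), of the same family, had 27.9, 69.6 and 102 normalised reads in Xu142 at 1 DPA, against 14.0, 10.6 and 12.5 at -1 DPA, a difference of 2.16 ± 0.55. Without replicate 3 at 1 DPA, the difference of XTH 22 fell short of a large shift. Its course was opposite in Xu142fl, with a mean of 3.70 at 1 DPA and 59.6 at -1 DPA, and the edgeR interaction was 6.34 ± 0.69 (adjusted p = 4.26e-07). Both XTH2 and XTH 22 were higher in Xu142fl at -1 DPA and in Xu142 at 1 DPA. Their interactions follow from that listing, and the p-values add nothing to it. Of the 4 shared expansin and xyloglucan genes, 2 had a large increase, beside 7.51% of the 493 genes, and 3 had a course higher in Xu142, beside 16.7% of all 700, and their median difference was 1.58. The fourth, XTH 31 (Gh_D08G221000), did not pass (edgeR interaction 0.69, adjusted p = 0.202).

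Among the lipid-transfer proteins, Gh_D10G123300 (chromosome D10, 19082988 to 19083717) had 40673, 52136 and 54526 normalised reads in Xu142 at 1 DPA, against 651, 564 and 718 at -1 DPA. The 3 libraries of 1 DPA lay close together, and the difference was 6.25 ± 0.17, with 115 ± 9.58 at 1 DPA and 121 ± 50.4 at -1 DPA in Xu142fl (SD, n = 3 each). The edgeR interaction was 6.33 ± 0.37 (adjusted p = 5.03e-11). The other two shared members had days that overlapped. Gh_D10G123600 had 7394, 4136 and 5133 normalised reads at 1 DPA, against 4932, 4528 and 5460 at -1 DPA, a difference of 0.12, or -0.11 without replicate 1 at 1 DPA. Non-specific lipid-transfer protein 6 (Gh_A10G149700) had 3655, 910 and 1587 at 1 DPA, against 2246, 2066 and 2423 at -1 DPA, a difference of -0.36 that turned positive with median scaling (0.14) and without replicate 2 at 1 DPA (0.10). All 3 had a course higher in Xu142, beside 16.7% of the 700 genes (edgeR adjusted p = 0.000444 for Gh_D10G123600 and 0.0419 for Gh_A10G149700), and the call of Gh_A10G149700 was lost without Xu142 replicate 1 at 1 DPA (adjusted p = 0.154), without any 1 of the 6 libraries of -1 DPA and without Xu142fl replicate 2 or 3 at 1 DPA (0.0540 to 0.104). Gh_A10G149700 was also not called by the other tools, with an adjusted p of 0.0614 from DESeq2 and of 0.144 and 0.176 from limma, and edgeR with DESeq2 size factors gave 0.0867.

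Very-long-chain fatty acid and wax genes formed the list with the most large increases. All 11 shared members reached the mean of 10, 7 had a large increase and 0 a large decrease, beside 7.51% and 8.92% of the 493 genes, and their median difference was 2.13, against -0.45 over the 493 genes. All 11 lay above that median, beside 49.9% of the 493. With the other scalings 8 or 9 had a large increase. In 10 of the 11 the days did not overlap and 1 DPA was higher, beside 21.3% of the 493 genes. Their differences ran from -0.22 to 5.93.

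The elongation cycle starts with 3-ketoacyl-CoA synthases, which join a malonyl unit to the growing chain. 3-ketoacyl-CoA synthase 19 (Gh_A10G219300, chromosome A10, 109684172 to 109685557) had 3203, 6282 and 4484 normalised reads in Xu142 at 1 DPA, against 70.9, 69.4 and 77.8 at -1 DPA. The lowest 1 DPA library was far above the highest of -1 DPA, and the difference was 5.93 ± 0.28 (edgeR interaction 5.80 ± 0.44, adjusted p = 2.63e-09). 3-ketoacyl-CoA synthase 9 (Gh_A01G004600) had 1041, 553 and 661 normalised reads at 1 DPA, against 42.0, 40.5 and 41.3 at -1 DPA. Here replicate 1 was the highest 1 DPA library, and the difference was 4.10 ± 0.27 (edgeR interaction 4.81 ± 0.99, adjusted p = 0.000668). 3-ketoacyl-CoA synthase 6 (Gh_A03G171100) had 219, 843 and 528 at 1 DPA, against 145, 134 and 148 at -1 DPA, a difference of 1.69 ± 0.57 without overlap. For 3-ketoacyl-CoA synthase 6 the edgeR interaction was 3.42 ± 0.55 (adjusted p = 5.0e-05).

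The next steps of the cycle shifted in the same direction. Very-long-chain 3-oxoacyl-CoA reductase 1 (Gh_A03G056300), which makes the first reduction, had 3302, 5086 and 4184 normalised reads in Xu142 at 1 DPA, against 663, 599.8 and 668 at -1 DPA. The days did not overlap, with a difference of 2.68 ± 0.19 and an edgeR interaction of 2.76 ± 0.26 (adjusted p = 6.44e-08). PASTICCINO 2 (Gh_A11G222200), the dehydratase of the cycle, averaged 1519.7 ± 325 at 1 DPA and 506 ± 36.8 at -1 DPA (SD, n = 3 each), a difference of 1.57 ± 0.18 (edgeR interaction adjusted p = 2.11e-05).

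ECERIFERUM 1 and ECERIFERUM 3 are known to act together in making wax alkanes. ECERIFERUM 1 Gh_A05G335100 had 4489.8, 6180.2 and 5326 normalised reads in Xu142 at 1 DPA, against 422, 361 and 405 at -1 DPA. The difference was 3.74 ± 0.15 without overlap, and the edgeR interaction was 3.83 ± 0.27 (adjusted p = 8.83e-10). The copy named ECERIFERUM 1 on chromosome A06 (Gh_A06G185800) was less abundant, with 133, 141 and 140.4 at 1 DPA, against 28.9, 27.0 and 37.5 at -1 DPA, a difference of 2.13 ± 0.14. It was higher in Xu142fl than in Xu142 on both days, with 344 ± 17.4 at 1 DPA and 262 ± 15.1 at -1 DPA in Xu142fl (SD, n = 3 each), and its edgeR interaction was 1.75 ± 0.23 (adjusted p = 6.97e-06).

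The ECERIFERUM 3 pair varied most among the 1 DPA libraries. Gh_D08G261100 had 939.9, 255 and 351 normalised reads in Xu142 at 1 DPA, against 57.9, 56.9 and 59.6 at -1 DPA, a difference of 2.89 ± 0.57. Gh_A08G270600 had 852, 121 and 250.3 at 1 DPA, against 64.4, 67.5 and 80.7 at -1 DPA, a difference of 2.05 ± 0.82. In both, replicate 1 was the highest, and without it the difference of Gh_A08G270600 was 1.29, below the limit for a large shift. ECERIFERUM 26-like (Gh_A08G189600), related to proteins of chain elongation, averaged 4146 ± 978 at 1 DPA and 2362 ± 201 at -1 DPA (SD, n = 3 each), a difference of 0.79. Long chain acyl-CoA synthetase 1 (Gh_A07G138800), which activates fatty acids, was the member whose days overlapped, with 4381, 2618 and 2741 at 1 DPA and 3654, 3546 and 3848 at -1 DPA. Its difference of -0.22 turned positive with each of the other scalings.

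Of the 11 fatty acid and wax genes, 10 had a course higher in Xu142 and 0 a lower one (edgeR interaction), beside 16.7% and 20.6% of the 700 genes. The exception was long chain acyl-CoA synthetase 1 (adjusted p = 0.557). By limma with a pseudocount of 0.1 the count was 9, and the call of 3-ketoacyl-CoA synthase 9 was lost (adjusted p = 0.140). Without Xu142fl replicate 3 at -1 DPA the edgeR count was 8. The calls lost there were 3-ketoacyl-CoA synthase 9 (Gh_A01G004600, edgeR adjusted p = 0.103) and ECERIFERUM 3 (Gh_D08G261100, edgeR adjusted p = 0.267), which average under 10 normalised reads in Xu142fl on both days.

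**Figure D2:**
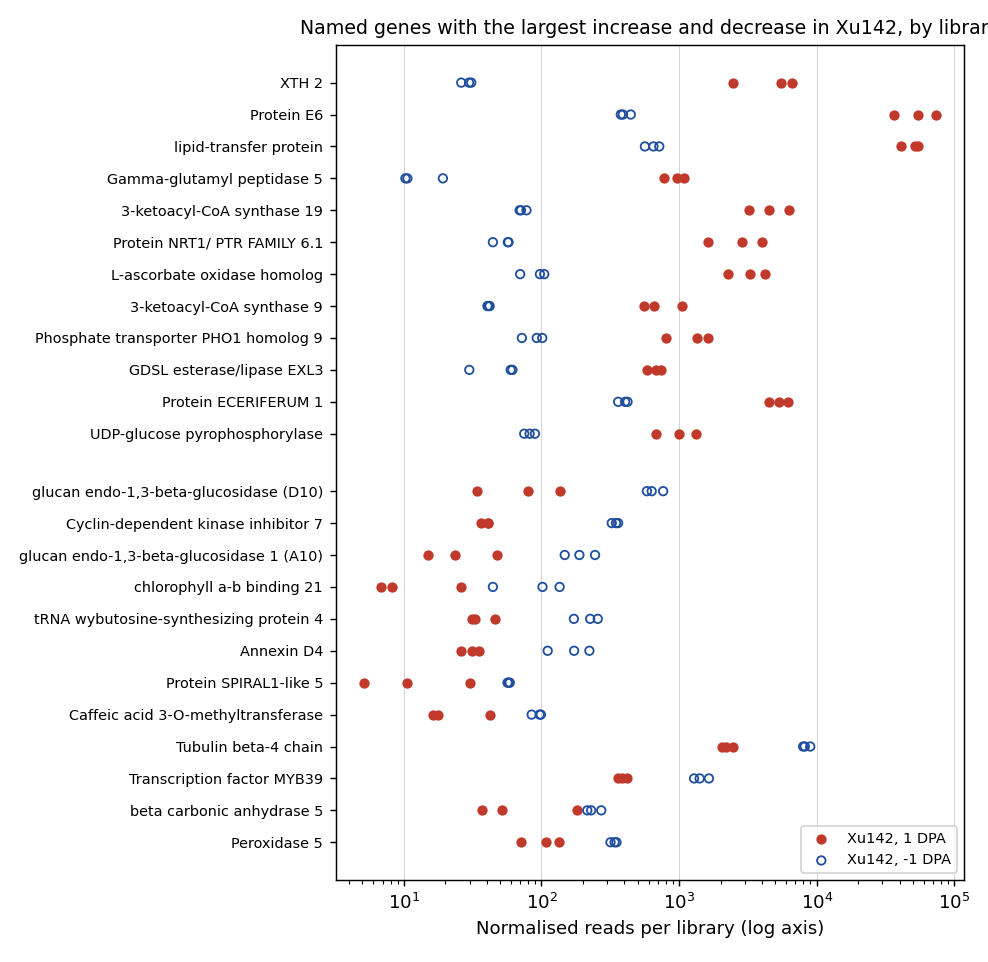
Normalised reads (log axis) of the 12 named genes with the largest increase and the 12 with the largest decrease in each of the 3 Xu142 libraries of 1 DPA and the 3 of -1 DPA, 1 row per gene and 1 point per library. The increases, such as E6 with 36276 to 73224 at 1 DPA against 377 to 446 at -1 DPA, leave a gap between the days, and the decreases leave one in the other direction. The genes were chosen for days without overlap, so that a gap is set by the choice and only its size is shown.

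Transporters, proteases and other enzymes were also among the large increases. The protein named NRT1/PTR FAMILY 6.1 (Gh_D02G195800), of a family that carries nitrate, peptides and hormones, had 1609, 4033 and 2887 normalised reads in Xu142 at 1 DPA, against 56.9, 44.4 and 57.6 at -1 DPA. The difference was 5.63 ± 0.41, while Xu142fl averaged 64.9 at 1 DPA and 145 at -1 DPA, and the edgeR interaction was 6.91 ± 0.39 (adjusted p = 3.7e-11). Gamma-glutamyl peptidase 5 (Gh_A04G140500), of a family that trims glutathione conjugates, had 783, 1094 and 973 at 1 DPA, against 10.3, 10.6 and 19.2 at -1 DPA. Its difference was 6.09 ± 0.31 without overlap, and its edgeR interaction was 7.10 ± 0.36 (adjusted p = 1.02e-11), with 37.1 ± 1.16 at 1 DPA and 72.8 ± 18.3 at -1 DPA in Xu142fl. NRT1/PTR FAMILY 6.1 and gamma-glutamyl peptidase 5 were both higher in Xu142fl at -1 DPA and in Xu142 at 1 DPA. Their interactions follow from that listing, and the p-values add nothing to it. The L-ascorbate oxidase homolog Gh_D05G255900, which resembles enzymes that oxidise ascorbate in the wall, averaged 3242 ± 961 at 1 DPA and 90.7 ± 18.3 at -1 DPA (SD, n = 3 each; edgeR interaction 5.93 ± 0.32, adjusted p = 3.41e-11). Phosphate transporter PHO1 homolog 9 (Gh_D09G013400) averaged 1257 ± 420.0 at 1 DPA and 88.6 ± 15.0 at -1 DPA (edgeR interaction 5.46 ± 0.32, adjusted p = 5.73e-11).

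The GDSL esterase EXL3 (Gh_A06G002100), a lipase-like enzyme of the cell exterior, had 675, 579.8 and 742 normalised reads in Xu142 at 1 DPA, against 59.7, 29.9 and 61.5 at -1 DPA. Its difference was 3.76 ± 0.35, and the difference in Xu142fl was -2.30 (edgeR interaction 6.55 ± 0.71, adjusted p = 4.26e-07). UTP--glucose-1-phosphate uridylyltransferase (Gh_A08G044600), or UDP-glucose pyrophosphorylase, which makes the UDP-glucose that feeds cellulose, had 674, 1334 and 1001 at 1 DPA, against 89.6, 82.0 and 74.9 at -1 DPA. The difference was 3.54 ± 0.29 without overlap (edgeR interaction 3.43 ± 0.43, adjusted p = 3.11e-06). Linoleate 9S-lipoxygenase 5 (Gh_D13G124500), which oxidises polyunsaturated fatty acids, averaged 1501 ± 435 at 1 DPA and 352 ± 47.2 at -1 DPA and lay just inside the limit with a difference of 2.05 ± 0.29.

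The cytoskeleton genes differed among themselves. Actin Gh_D01G244100 had 1432, 2119 and 1518 normalised reads in Xu142 at 1 DPA, against 162, 134 and 154 at -1 DPA, a difference of 3.47 ± 0.19 (edgeR interaction 4.07 ± 0.30, adjusted p = 1.79e-09). Tubulin beta-4 chain (Gh_A07G127700) ran the other way, with 2053, 2186 and 2448 at 1 DPA, against 8187, 7963 and 8966 at -1 DPA. Its difference of -1.91 ± 0.09 was just short of a large shift, and it was lower in all 3 libraries of 1 DPA. Xu142fl averaged 784 for this gene at 1 DPA and 1586 at -1 DPA, and the edgeR interaction of -0.89 ± 0.28 (adjusted p = 0.015) was lost with TMM factors (adjusted p = 0.200) and without Xu142fl replicate 2 at -1 DPA (adjusted p = 0.0507).

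Per kilobase of gene length, tubulin beta-4 stood at 1756 normalised reads per kb at 1 DPA and 6597 at -1 DPA, while E6 stood at 49715 and 368. Gh_D10G123300, the lipid-transfer gene above, had 75556 normalised reads per kb at 1 DPA and 991 at -1 DPA. One gene without a protein name, Gh_A02G045600, had the largest difference of all 493, and it was picked after its values were seen because the naming rule takes named proteins only. It had 70431, 97540.5 and 86742 normalised reads in Xu142 at 1 DPA, against 428, 361 and 485 at -1 DPA, a difference of 7.64 ± 0.18. Xu142fl held a mean of 30.8 at 1 DPA and 131 at -1 DPA, and the edgeR interaction was 9.73 ± 0.35 (adjusted p = 4.41e-14).

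Of the regulators, WER (Gh_D04G061400), a MYB factor known in Arabidopsis for setting root epidermal cell fate, had 209, 161 and 161 normalised reads in Xu142 at 1 DPA, against 29.9, 33.8 and 27.9 at -1 DPA. Its difference was 2.49 ± 0.15, while Xu142fl averaged 66.0 at 1 DPA and 103 at -1 DPA, and the edgeR interaction was 3.19 ± 0.33 (adjusted p = 3.13e-07). The higher genotype of WER switched between the days, so this interaction follows from the listing. WER was the 1 large increase among the 8 MYB genes that reached the mean of 10, beside 7.51% of the 493 genes. The median difference of these MYB genes was -0.56, near the -0.45 of the 493. MYB39 (Gh_D12G181200) averaged 389.6 ± 28.1 at 1 DPA and 1447 ± 184 at -1 DPA, a difference of -1.89, and its course was not called different from that of Xu142fl (edgeR interaction, adjusted p = 0.862). The epidermal homeodomain factor PROTODERMAL FACTOR 2 (Gh_A06G172400) averaged 1407 at 1 DPA and 2466 at -1 DPA (edgeR interaction, adjusted p = 0.518). No protein name among the shared genes matched the search terms for auxin, arabinogalactan, sugar transport or H3K27me3 writers and erasers. Only 333 of the 700 genes had such a name, and the others could not match.

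The clock factor LHY, a morning-phased MYB-related repressor, was lower at 1 DPA in both listed copies. Gh_D12G134800 had 119.9, 214 and 202 normalised reads in Xu142 at 1 DPA, against 540.4, 354 and 605 at -1 DPA, and Gh_A12G134600 had 160.3, 249.7 and 254, against 631, 435 and 873. In neither copy did the days overlap, with differences of -1.49 ± 0.35 and -1.52 ± 0.36. Their courses were lower in Xu142 (edgeR adjusted p = 0.000919 for Gh_D12G134800 and 0.0295 for Gh_A12G134600), and the call of Gh_A12G134600 was lost without Xu142 replicate 3 at -1 DPA (adjusted p = 0.0848), without Xu142fl replicate 1 or 2 at 1 DPA (0.0519 and 0.0613) and without Xu142fl replicate 3 at -1 DPA (0.0593), and with TMM factors (0.113). The labels give no hour of sampling.

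**Figure D3:**
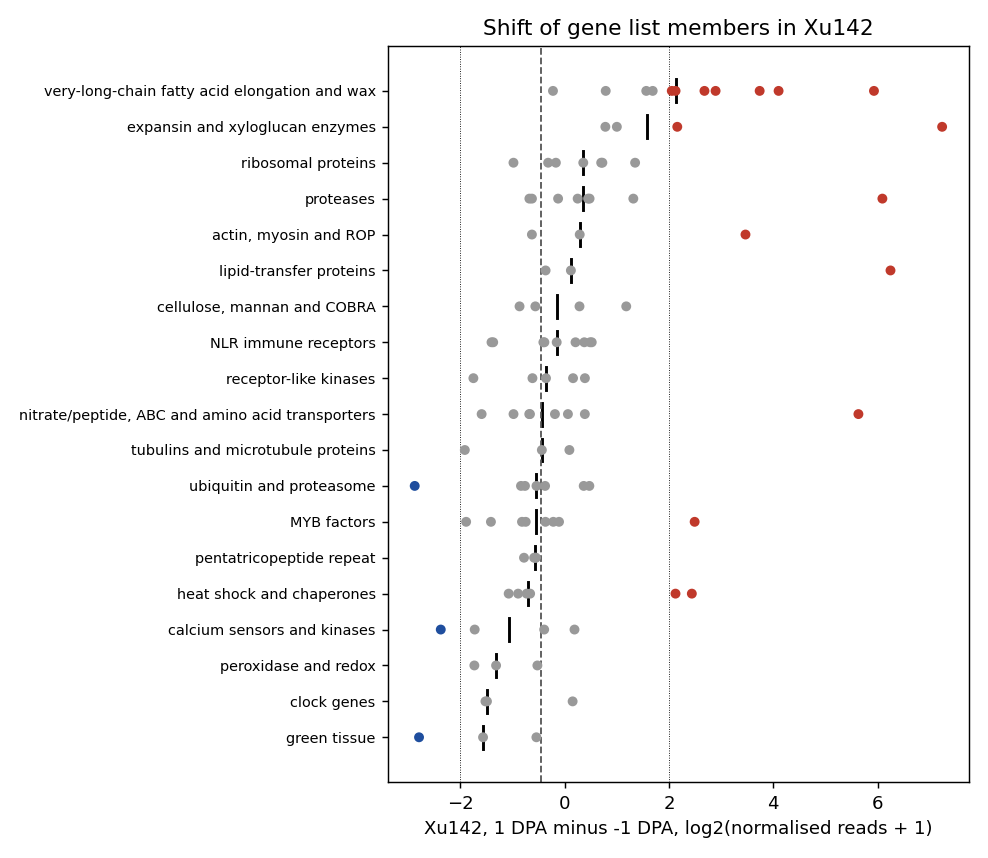
Difference of mean log2(normalised reads + 1), Xu142 at 1 DPA minus -1 DPA, for each member (point) of the lists with at least 3 members past the mean of 10, with the list median as a bar, dotted lines at 2 and -2, and the median of all 493 genes (-0.45) as a dashed line. The fatty acid and wax genes lie between -0.22 and 5.93 around a median of 2.13, while the other lists shown have medians between -1.56 and 1.58.

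Of 6 heat-shock and chaperone genes 2 had a large increase, beside 7.51% of the 493 genes. They were the 17.5 kDa class I heat shock protein (Gh_D12G152800), with 997 ± 180.4 at 1 DPA and 182 ± 16.6 at -1 DPA, and heat shock protein 83 (Gh_A12G280200), with 776 ± 349.5 at 1 DPA and 164 ± 6.43 at -1 DPA (SD, n = 3 each). The median of that list was -0.69. The 7 ribosomal protein genes that reached the mean of 10 held 0 large shifts around a median of 0.36, and 4 of the 8 shared members had a course higher in Xu142, beside 16.7% of the 700 genes (edgeR interaction). The 9 disease resistance genes of the NLR class that reached the mean held 0 large shifts around a median of -0.15.

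Large decreases fell into a low-share group and 13 other genes. The 31 low-share decreases, 26 of them unannotated transcripts, stood in Xu142 at -1 DPA at 2.15% to 4.31% of their Xu142fl level (median 3.17%), with means of 10.1 to 96.3 normalised reads. At 1 DPA none had a mean above 4.43 in Xu142, and 21 had no read in any library. Against a floor of 3 reads over the group, those 21 were at least 8.61- to 24.9-fold lower at 1 DPA. In Xu142fl the 31 stayed abundant, with means of 179 to 1887 at 1 DPA and 264 to 2789 at -1 DPA.

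A named gene of the low-share group is the ubiquitin ligase XBAT32 (Gh_A08G097700), known in Arabidopsis for a role in lateral root formation. It had 4.14, 6.82 and 2.34 normalised reads in Xu142 at 1 DPA, against 37.3, 38.6 and 33.6 at -1 DPA, and Xu142fl held a mean of 629.7 at 1 DPA and 906 at -1 DPA. The difference was -2.87 ± 0.36, and the edgeR interaction had an adjusted p of 2.37e-05. In the 0 DPA table XBAT32 had 148, 148 and 127 in Xu142, above both other days. The same held for 12 of the 16 low-share decreases that the 0 DPA table lists.

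Among the 13 other decreases 8 had a protein name. A pair of glucan endo-1,3-beta-glucosidases, enzymes of a family that cuts callose, were among them. Gh_D10G040000, the largest of the 13, had 136, 34.1 and 79.5 normalised reads in Xu142 at 1 DPA, against 632, 583 and 766 at -1 DPA, and Gh_A10G031200 had 47.6, 15.0 and 23.4, against 189, 148 and 245. The differences were -3.17 ± 0.58 and -2.84 ± 0.51 without overlap. Both were lower at 1 DPA in Xu142fl too, by -2.74 and -2.54, and their courses were not called different (edgeR interaction, adjusted p = 0.668 and 0.703).

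Cyclin-dependent kinase inhibitor 7 (Gh_D02G235400), of a family that restrains the cell cycle, had 36.2, 40.9 and 40.9 normalised reads in Xu142 at 1 DPA, against 360.3, 324 and 348 at -1 DPA. The libraries of each day lay close together, and the difference was -3.10 ± 0.07. Xu142fl averaged 96.4 ± 19.7 at 1 DPA and 124 ± 1.26 at -1 DPA (SD, n = 3 each), so that the gene was higher in Xu142 at -1 DPA and higher in Xu142fl at 1 DPA. The edgeR interaction was -2.76 ± 0.25 (adjusted p = 5.21e-08). Annexin D4 (Gh_D05G282500), a calcium-dependent membrane-binding protein, showed the same exchange, with 25.9, 31.4 and 35.1 in Xu142 at 1 DPA, against 173, 111 and 223 at -1 DPA. Its difference was -2.37 ± 0.32, and with median scaling it was -1.88, short of a large shift. Xu142fl averaged 88.0 at 1 DPA and 61.5 at -1 DPA, and the edgeR interaction was -2.98 ± 0.36 (adjusted p = 2.06e-06). Both genes had been listed with opposite genotype differences on the 2 days. An interaction follows from that listing, so these calls add nothing to it.

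tRNA wybutosine-synthesizing protein 4 (Gh_A09G135400), of an enzyme family that modifies a tRNA base, averaged 36.5 ± 7.98 in Xu142 at 1 DPA and 218 ± 42.8 at -1 DPA (edgeR interaction -2.32 ± 0.27, adjusted p = 1.16e-06). Chlorophyll a-b binding protein 21 (Gh_D10G040100), a light-harvesting protein, had 25.9, 6.82 and 8.19 at 1 DPA, against 102, 44.4 and 135 at -1 DPA, and its course was not called different (edgeR interaction, adjusted p = 0.197). Both limma fits did call its course lower in Xu142 (adjusted p = 0.00852 with a pseudocount of 1 and 0.0315 with 0.1). This gene was 1 of 3 shared green-tissue markers, whose summed level was 79.4 at 1 DPA and 203 at -1 DPA. Of the other markers, 1 pollen gene was shared, at 12.6 and 32.1, and 0 shared genes matched the ovule and seed storage lists by name. The part of such tissue in the shifts was not tested. SPIRAL1-like 5 (Gh_A08G133000), a microtubule-associated protein, averaged 15.2 ± 13.1 at 1 DPA and 57.8 ± 1.06 at -1 DPA. It was the 1 decrease with a course called higher in Xu142 (edgeR adjusted p = 0.0206, and 0.0751 without Xu142fl replicate 3 at 1 DPA), and limma with a pseudocount of 1 did not make the call (adjusted p = 0.114). The difference of SPIRAL1-like 5, -2.17, was short of a large shift with the other scalings (-1.83 to -1.70) and without replicate 1 at 1 DPA (-1.64). Xu142fl had no read of it at 1 DPA and a mean of 11.2 at -1 DPA.

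At the limits of the definition, lipoxygenase 5 and ECERIFERUM 3 Gh_A08G270600 lay just inside with 2.05 each, and Gh_A13G111700 (1.98) and Gh_A13G102100 (1.91) just outside. Among decreases, an unannotated transcript (-2.02) and Gh_A08G232700 (-2.11) lay just inside, with a caffeic acid 3-O-methyltransferase (-1.97) and another unannotated transcript (-1.95) just outside.

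Of the 37 increases, 26 were also listed at 0 DPA, and in 25 of these the 0 DPA mean lay between those of the other days. The increases and decreases were chosen for a gap between the outer days, so a mean in between is partly set by that choice. The 0 DPA libraries were also scaled on their own. The median step was 1.41 on the log2 scale between -1 and 0 DPA and 1.94 between 0 and 1 DPA. E6 had 377, 446 and 390.0 normalised reads at -1 DPA, 3272, 3976 and 1408 at 0 DPA and 36276, 73224 and 54261 at 1 DPA. Actin Gh_D01G244100 had 413, 466 and 270.1 at 0 DPA, and 3-ketoacyl-CoA synthase 19 had 279.9, 288 and 96.9. In these 3 genes replicate 3 was the lowest library of 0 DPA. The exception was ECERIFERUM 3 Gh_A08G270600, with 527, 574 and 369 at 0 DPA, a mean of 490.3 that was above both other days. All 5 of the 13 other decreases listed at 0 DPA lay between the other days, among them the wybutosine protein with 112, 80.8 and 54.6.

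**Figure D4:**
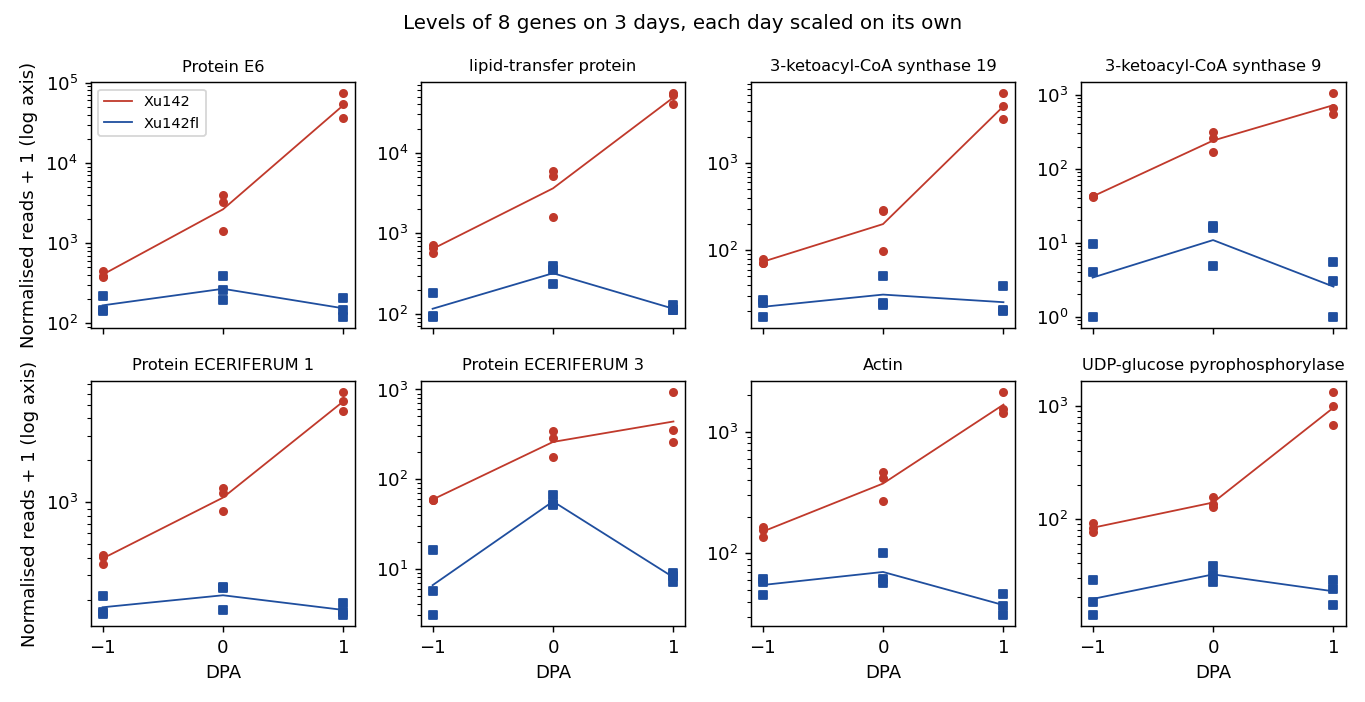
Normalised reads + 1 (log axis) of 8 genes in the libraries of Xu142 (red circles) and Xu142fl (blue squares) at -1, 0 and 1 DPA, with 1 point per library and a line through the geometric means; each day was scaled on its own. E6 and the lipid-transfer protein climb on both steps, and ECERIFERUM 3 Gh_D08G261100 in Xu142 spreads from 255 to 939.9 at 1 DPA.

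Among these genes the 1 DPA libraries varied more than those of -1 DPA. The median coefficient of variation of the 37 increases was 29.0% at 1 DPA and 10.9% at -1 DPA. At 1 DPA, 25 of the 37 were lowest in replicate 1, 10 in replicate 2 and 2 in replicate 3. The highest library was replicate 1 for 10, among them both ECERIFERUM 3 genes and 3-ketoacyl-CoA synthase 9, replicate 2 for 21 and replicate 3 for 6.

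Across the 700 genes the course was higher in Xu142 than in Xu142fl for 117 (16.7%) and lower for 144 (20.6%) by edgeR's interaction test with Benjamini-Hochberg adjustment. Without low-share genes, the lower count was 63. The difference in Xu142 that chose the large shifts is also 1 term of the interaction, so the calls among them are a description and partly set by that choice. All 37 large increases had a higher course, 33 did without Xu142fl replicate 3 at -1 DPA, and 35 did by limma with a pseudocount of 0.1. Of the 44 large decreases 38 had a lower course, 1 a higher one and 5 were not called. The increases had a median difference of -0.55 in Xu142fl, and 1 of the 37 also reached 2 there. The decreases had a median of -0.50 in Xu142fl, and 4 of the 44 were lower there by at least 2. These 2 counts in Xu142fl set no condition on overlap or level. In the authors' deposited tables the higher genotype switched between the days in 28 genes, 14 in each direction. An interaction follows from that choice, so the calls of these 28 add nothing to it.

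**Figure D5:**
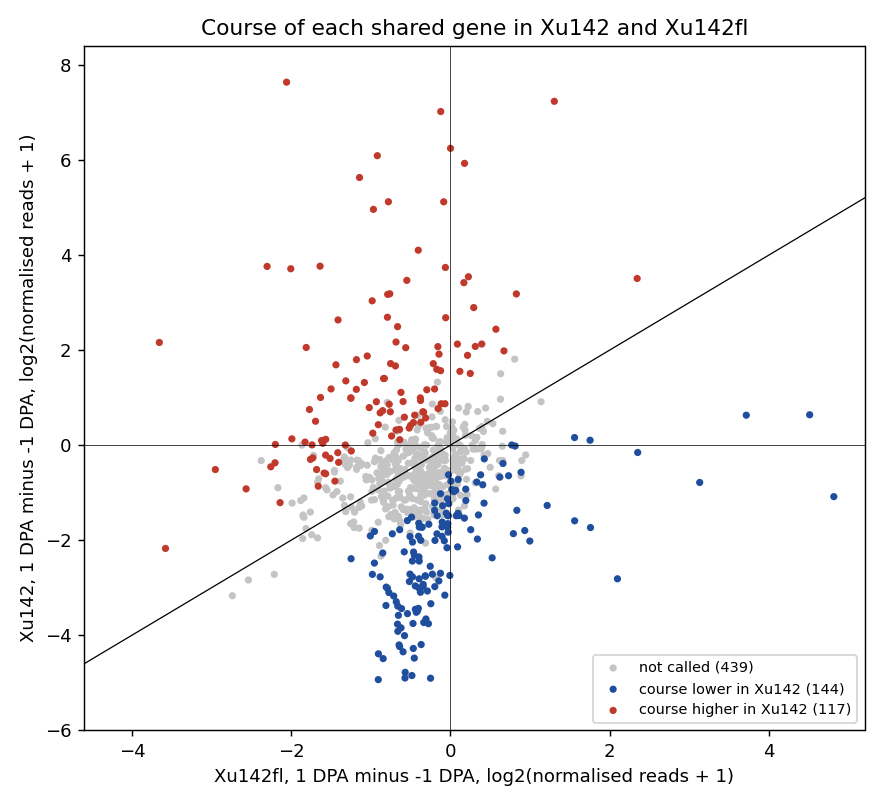
Difference between days (1 DPA minus -1 DPA, log2) in Xu142 (vertical) against the same in Xu142fl (horizontal), with 1 point per gene of the 700 and colours for the interaction call. The 117 genes with a higher course in Xu142 lie above the diagonal and the 144 with a lower one below it.

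Some genes stood out through Xu142fl. By mean, the genes of this paragraph were higher in Xu142 at -1 DPA and in Xu142fl at 1 DPA. An interaction follows from that listing, so their p-values add nothing to it. Homeobox-leucine zipper protein ATHB-40, a homeodomain factor, had 2 shared copies. Gh_A11G196800 had 548, 1226 and 1741 normalised reads in Xu142 at 1 DPA, against 1812, 1595 and 2079 at -1 DPA, and the days overlapped. Xu142fl averaged 5330.1 ± 1133 at 1 DPA and 599 ± 31.7 at -1 DPA (SD, n = 3 each), and the edgeR interaction was -3.80 ± 0.42 (adjusted p = 4.75e-07). The copy Gh_D11G200000 had 361, 696 and 1717 in Xu142 at 1 DPA, against 506, 448 and 503 at -1 DPA, while Xu142fl averaged 3136 ± 459 at 1 DPA and 136 ± 6.51 at -1 DPA (edgeR interaction -3.60 ± 0.50, adjusted p = 1.05e-05). Gibberellin 3-beta-dioxygenase 1 (Gh_D06G223900), which makes active gibberellin, had 163, 315 and 309 in Xu142 at 1 DPA, against 155, 163 and 169 at -1 DPA. In Xu142fl it averaged 698 ± 63.1 at 1 DPA and 53.4 ± 13.9 at -1 DPA (edgeR interaction -3.01 ± 0.32, adjusted p = 4.03e-07).

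Beta carbonic anhydrase 5 (Gh_A05G204500), which interconverts carbon dioxide and bicarbonate, had 37.2, 51.8 and 181 normalised reads in Xu142 at 1 DPA, against 229.6, 215 and 272 at -1 DPA. Its difference was -1.74 ± 0.69, or -2.41 without replicate 3 at 1 DPA, while Xu142fl averaged 302 at 1 DPA and 89.0 at -1 DPA (edgeR interaction -3.17 ± 0.49, adjusted p = 3.15e-05). The stem-specific protein TSJT1 (Gh_A10G016300) had 178, 219.6 and 595 at 1 DPA, against 876, 785 and 936 at -1 DPA, and Xu142fl averaged 1198 at 1 DPA and 404 at -1 DPA (edgeR interaction -2.95 ± 0.44, adjusted p = 2.18e-05). In both genes, as in both ATHB-40 copies, replicate 3 was the highest Xu142 library of 1 DPA. Both were also higher in Xu142 at -1 DPA and in Xu142fl at 1 DPA, so their interactions follow from the listing.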

How the data were processed

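RNA of 18 ovule libraries was sequenced on the Illumina platform after a standard preparation, per the labels' protocols. Which aligner, counter, strand setting, annotation and build were used is not given in the sources used here. The deposited tables hold genes that the authors called between Xu142 and Xu142fl on that day, with a signal per library, normalised reads set by the authors for each table. In every library 100% of the deposited values were whole multiples of 1 value within 0.001, so read counts were recovered from the deposited signal with factors of 0.733 to 1.76. The deposited log2 fold change gave the direction of the authors' calls, and the deposited p-value columns were not used further. Library depth beyond the listed genes is unknown. Library columns and group means of the same table were read through the sample titles, no 2 libraries were identical, and 0 library columns lacked a sample.

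The members and gene lists were chosen with earlier results of these data known. Lists are search terms matched to the first Swiss-Prot name of a gene. Named genes are the 12 named proteins with the largest difference each way (mean of at least 40 normalised reads on the higher day, no overlap), the 8 highest per day per kb, the 8 largest called interactions each way, 3 members of each list with 3 or more, and those next to the limit of 2. The course of Xu142 was described with a pseudocount of 1. The interaction (Xu142 at 1 minus -1 DPA, minus the same in Xu142fl) was fitted on 12 libraries with edgeR 4.0.16 in R 4.3.3, the authors' factors as offsets, Benjamini-Hochberg adjustment over 700 genes and a threshold of 0.05, and was tested on simulated data.

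Deviations of Xu142 libraries with the same replicate number correlated between the days at 0.108, 0.232 and 0.127 (429 genes). In Xu142fl these correlations were 0.0385, -0.0469 and 0.107. Of the 12 libraries, 7 matched best with their own number in the other groups. The numbers may thus pair the days in Xu142, although the labels do not say so. A pairing would leave a mean difference as it is, and each SE of a difference given here treats the days as unpaired. Alternatives used other scalings, pseudocounts, limits and filters, DESeq2 1.42.0, limma 3.58.1, a replicate block and each library left out. No genome was used here and no sequence is printed.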

Additional observations from a re-analysis of the deposited data

Results flagged for a closer look

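Each result here stood out because the course from -1 to 1 DPA differed between Xu142 and Xu142fl by edgeR's interaction test with Benjamini-Hochberg adjustment. The course was higher in Xu142 for 117 of 700 genes and lower for 144. For genes whose higher genotype switched between the days, as named above, the interaction follows from the listing. The named proteins with the highest interactions were E6 (7.20 on the log2 scale), gamma-glutamyl peptidase 5 (7.10), NRT1/PTR FAMILY 6.1 (6.91), the GDSL esterase EXL3 (6.55), XTH 22 (6.34), the lipid-transfer protein Gh_D10G123300 (6.33), XTH2 (6.13) and the ascorbate oxidase homolog Gh_D05G255900 (5.93).

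Those with the lowest were a protein named after the mitochondrial open reading frame AtMg00310 (Gh_D03G042600, -5.77), methylesterase 10 (-4.38), the ATHB-40 copies Gh_A11G196800 (-3.80) and Gh_D11G200000 (-3.60), beta carbonic anhydrase 5 (-3.17), gibberellin 3-beta-dioxygenase 1 (-3.01), annexin D4 (-2.98) and TSJT1 (-2.95). The AtMg00310 and methylesterase 10 genes had no read in Xu142 at 1 DPA, against means of 10.2 and 4.78 normalised reads at -1 DPA, so that these fitted values depend on the prior count. Both belong to the low-share group, at 5% or less of the Xu142fl level at -1 DPA. In Xu142fl they were abundant, with 237 at 1 DPA and 368 at -1 DPA for AtMg00310, and 86.4 at 1 DPA and 167 at -1 DPA for methylesterase 10.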

How the results depend on the processing

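Of the 92 named differences, 16 changed sign under at least 1 alternative, each of them at most 0.43 in size. More decreases than increases were counted with the authors' factors, and the balance turned with the other scalings, as given with the results, and with a pseudocount of 10 (33 increases). The count of large increases was 37, and it came to 61 with a limit of 1 and 23 with a limit of 3 on the log2 scale, and ran from 36 to 41 without single libraries. The count of large decreases was 44, and it came to 117 with a limit of 1, 10 with a pseudocount of 10, 84 with no filter on low values, 6 with a mean of at least 100, and 13 without low-share genes, an alternative chosen after seeing the data. It ran from 41 to 49 without single libraries. Large increases among list members were 19, between 17 and 20 without single libraries, 22 with median scaling and 21 with TMM factors. Large decreases among them were 5, 5 to 6 without single libraries, and 4 with median scaling. With list terms matched to the whole description, an alternative chosen after seeing the data, there were 20 and 7.

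The edgeR course calls, 261 in all, ran from 231 to 276 without single libraries, with 94 to 130 higher and 122 to 146 lower in Xu142, and the lower ones came to 63 without low-share genes. With a replicate block 247 were called (112 higher, 135 lower), and with a block within each genotype 266 (121 and 145). The replicate block ended the call of no gene named in the report, and the block within genotypes ended that of lipid-transfer protein 6 (Gh_A10G149700, adjusted p = 0.0614). DESeq2 called 258, and limma 246 with a pseudocount of 1 and 251 with 0.1. TMM factors turned the balance to 130 higher and 108 lower, and DESeq2 factors 98 and 183. At an unadjusted p under 0.05 edgeR called 324.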
